A study of Mus musculus with 18 samples.

Results

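The genes described here encode secreted proteins of the fibrillin microfibril and its surroundings, namely *Adamtsl2*, *Thsd4*, *Papln*, *Fbn1*, *Ltbp1* and *Ltbp3*, together with *Aebp1*, *Tnn* and *Pkdcc*. These 9 genes were taken by name from the 55401 genes measured in mouse thick ascending limb (TAL) tubules. *Adamtsl2*, *Thsd4*, *Papln*, *Aebp1*, *Tnn* and *Pkdcc* were chosen by their counts in these same pools, selected on differences between segments or genotypes, so that their differences are given as a description without a test. *Fbn1*, *Ltbp1* and *Ltbp3* were added as their microfibril partners.

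Fibrillin-1 assembles outside the cell into microfibrils, the scaffold on which elastic fibres are laid down. Latent TGF-beta binding proteins (LTBPs) tether inactive TGF-beta to this scaffold, and ADAMTS-like proteins, which resemble ADAMTS metalloproteases but lack the protease domain, bind to it and regulate its assembly. In the kidney, matrix is known mainly as a product of fibroblasts and mesangial cells, and the tubule epithelium adds to the basement membrane on which it sits.

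RNA was sequenced from 18 pools of 150 to 200 dissected tubules, each pool from a distinct adult male mouse of 4 to 10 months, labelled C57BL/6J (mostly C57BL/6 in the study's methods). Medullary tubules (MTAL) of liberase-treated kidneys came from the inner stripe and cortical tubules (CTAL) from the cortex, and the medullary and cortical pools came from different animals. All mice carried floxed *Cldn10* alleles (Cldn10 fl/fl). In the conditional knock-out (cKO) a Cre recombinase driven by the Ksp-cadherin promoter, active in the distal nephron, deleted *Cldn10*, which encodes a claudin that forms paracellular sodium channels, and Cre-negative littermates served as wild type (WT). There were 5 pools of WT CTAL, 5 of cKO CTAL, 5 of WT MTAL and 3 of cKO MTAL. The study left out other cKO pools after its own quality checks, and these were not analysed here. The labels of WT CTAL replicate 1 conflict, its title and genotype naming a knock-out and its pool name a wild type. It was used as WT.

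Total counts per pool ranged from 10824299 to 62339939, and levels are given as CPM, counts scaled to library sizes that were normalised by the trimmed mean of M-values. *Cldn10* lay between 384 and 810 CPM in the WT pools and between 151 and 295 CPM in the cKO pools, so that *Cldn10* RNA was lower but present in the cKO, and WT CTAL replicate 1 had 446 CPM. The TAL cotransporter gene *Slc12a1* was between 11424 and 16145 CPM in every pool. In pools of tubules, fewer cells of a type and less RNA per cell cannot be told apart. Xist, the RNA that coats the inactive X chromosome in female cells, was between 6.50 and 8.77 CPM in 7 pools and between 0.233 and 0.738 CPM in the other 11, although the animals are described as male. The 7 pools were cKO CTAL replicate 2, WT CTAL replicates 3 and 22, and WT MTAL replicates 11, 15, 17 and 19, and values without these pools are given beside those genotype comparisons of the 9 genes and of the listed genes called (adjusted p and fold) that changed call or direction, or moved by over 1.5-fold. In that fit, added after seeing the data, WT MTAL kept 1 pool.

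The upstream sequences of the 5 genes that were least expressed in WT MTAL are shown first, because these genes followed each other across the pools. They are the 250 bases before the first RefSeq start of each gene (build GRCm38.p6), 5′ to 3′ on the strand of the gene. Capitals mark a TATA box (TATAAA) or a GC box (GGGCGG, or CCGCCC where it lies on the other strand).

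Adamtsl2, chr2:27079129-27079378, plus strand: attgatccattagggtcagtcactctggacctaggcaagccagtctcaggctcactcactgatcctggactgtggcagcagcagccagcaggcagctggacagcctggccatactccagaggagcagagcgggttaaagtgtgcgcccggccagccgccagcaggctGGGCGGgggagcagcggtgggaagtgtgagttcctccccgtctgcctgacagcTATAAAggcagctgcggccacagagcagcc

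Thsd4, chr9:60511036-60511285, minus strand: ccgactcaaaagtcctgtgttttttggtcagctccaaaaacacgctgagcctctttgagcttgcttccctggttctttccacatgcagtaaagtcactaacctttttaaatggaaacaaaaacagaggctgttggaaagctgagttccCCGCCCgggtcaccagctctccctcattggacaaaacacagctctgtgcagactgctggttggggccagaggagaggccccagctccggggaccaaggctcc

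Papln, chr12:83763384-83763633, plus strand: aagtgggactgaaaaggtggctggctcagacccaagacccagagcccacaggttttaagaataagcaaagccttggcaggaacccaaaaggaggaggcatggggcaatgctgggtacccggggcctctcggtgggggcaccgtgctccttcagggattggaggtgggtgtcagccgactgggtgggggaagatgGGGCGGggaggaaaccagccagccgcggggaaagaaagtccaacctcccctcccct

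Aebp1, chr11:5861616-5861865, plus strand: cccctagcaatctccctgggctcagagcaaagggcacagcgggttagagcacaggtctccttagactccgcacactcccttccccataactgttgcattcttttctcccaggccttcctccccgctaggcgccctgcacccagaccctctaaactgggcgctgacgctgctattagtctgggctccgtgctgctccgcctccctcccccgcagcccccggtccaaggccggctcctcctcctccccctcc

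Pkdcc, chr17:83215033-83215282, plus strand: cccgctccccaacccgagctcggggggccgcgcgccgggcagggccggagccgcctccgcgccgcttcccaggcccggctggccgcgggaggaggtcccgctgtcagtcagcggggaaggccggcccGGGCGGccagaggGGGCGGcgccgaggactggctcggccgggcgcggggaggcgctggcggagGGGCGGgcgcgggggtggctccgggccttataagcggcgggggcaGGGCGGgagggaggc

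Among 32851 RefSeq windows of this kind, 12.4% held a TATA box and 32.7% a GC box on either strand. *Adamtsl2* held 1 of each, *Thsd4* and *Papln* held 1 GC box, *Pkdcc* held 4 GC boxes and *Aebp1* held neither motif. None of the 5 windows held the AP-1 letters TGANTCA (6.75% of all windows), the TEAD letters GGAATG (12.6%), the E-box CACGTG (6.02%) or the SMAD palindrome GTCTAGAC (0.167%) on either strand, and no match overlapped another. GC content was 83.2% for *Pkdcc*, above 99.6% of all windows, against 52.8% for *Thsd4*, near the median of 52.4%. *Thsd4* has a second RefSeq start, whose window held none of these motifs. The window of *Tnn*, not shown, had a GC content of 42.0% and 1 TEAD match. These matches describe letters only.

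*Adamtsl2*, *Thsd4*, *Papln*, *Aebp1* and *Pkdcc* were all least expressed in WT MTAL, and *Tnn* was most expressed there. In all 6 genes WT MTAL did not overlap any other group. Compared to WT MTAL, the first 5 were between 2.36- and 6.96-fold higher in cKO MTAL and *Tnn* was 5.52-fold lower. *Fbn1*, *Ltbp1* and *Ltbp3* did not pass the test in any of the comparisons in which they were tested with all pools and the count minimum, and without that minimum *Fbn1* passed between cKO MTAL and WT MTAL (-1.98, adjusted p 0.0224).

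**Figure D1:**
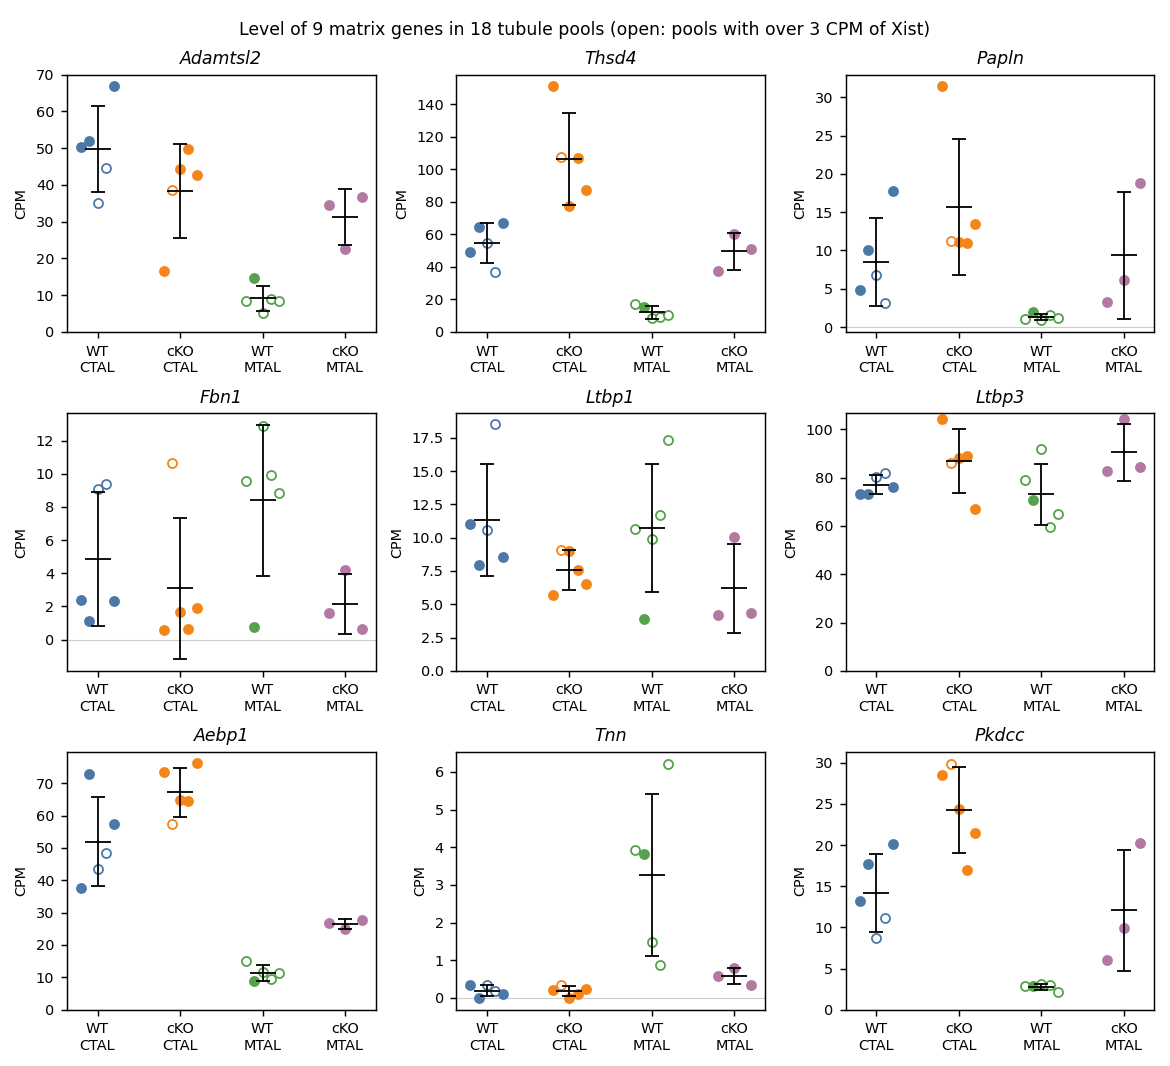
Level (CPM, linear axis) of each of the 9 genes in each of 18 pools by group, with the mean and SD as bars, and open points for the pools with more than 3 CPM of Xist. *Adamtsl2*, *Thsd4*, *Papln*, *Aebp1* and *Pkdcc* are lowest in WT MTAL, *Tnn* is highest there, and the open points of *Fbn1* lie above its filled points in every group that holds both.

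*Adamtsl2* encodes an ADAMTS-like glycoprotein that binds fibrillin-1 and LTBP-1, and lies at chr2:27079379-27108981 (GRCm38, plus strand) with no annotated gene overlapping it. In WT MTAL its level was 8.43, 14.6, 5.19, 8.98 and 8.42 CPM in replicates 11, 13, 15, 17 and 19, and in cKO MTAL it was 34.6, 22.6 and 36.6 CPM in replicates 16, 18 and 20. In WT CTAL it was 52.0, 44.6, 66.9, 50.3 and 35.0 CPM in replicates 1, 3, 8, 10 and 22, and in cKO CTAL 38.5, 44.4, 49.6, 42.6 and 16.6 CPM in replicates 2, 4, 7, 9 and 21. WT MTAL stood below all other pools, while cKO MTAL, cKO CTAL and WT CTAL overlapped each other in that rising order of their medians. The log2 fold change was 1.77 (SE 0.28) between cKO MTAL and WT MTAL, and -2.43 (SE 0.23) between WT MTAL and WT CTAL. Of the 5 WT MTAL pools 4 were among the 7 with Xist, and without the 7 these values were 1.11 (SE 0.47) and -1.94 (SE 0.49). For cKO CTAL over WT CTAL it was -0.39 (SE 0.23), so that *Adamtsl2* was higher in the cKO in the medulla and had a lower mean in the cKO in the cortex. Between cKO MTAL and cKO CTAL it was -0.26 (SE 0.29).

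*Thsd4* encodes ADAMTSL6, which binds fibrillin-1 and promotes its assembly, and lies at chr9:59966931-60522046 (minus strand). In this locus 2 annotated genes lie on the same strand and 2 on the opposite strand, among them the antisense RNA 2010001M07Rik, and the strand setting of the counting is not given in the sources used here. In WT MTAL *Thsd4* was at 16.9, 15.5, 8.40, 8.98 and 10.7 CPM in replicates 11, 13, 15, 17 and 19, and in cKO MTAL at 37.5, 60.4 and 50.9 CPM in replicates 16, 18 and 20. In WT CTAL it was at 64.6, 36.7, 67.0, 49.2 and 54.9 CPM in replicates 1, 3, 8, 10 and 22, and in cKO CTAL at 107, 77.5, 107, 87.6 and 151 CPM in replicates 2, 4, 7, 9 and 21. Its groups ranked WT MTAL, cKO MTAL, WT CTAL and cKO CTAL, and among neighbours in that order cKO MTAL and WT CTAL were the pair that overlapped. *Thsd4* was the gene of the 9 that was higher without overlap in cKO than in WT in both segments, with a log2 fold change of 2.05 (SE 0.24) in MTAL and 0.94 (SE 0.18) in CTAL. It was lower in MTAL than in CTAL in both genotypes, by a log2 fold change of -2.18 (SE 0.21) in WT and -1.06 (SE 0.21) in cKO.

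*Papln* encodes papilin, an extracellular protein with thrombospondin type 1 repeats and protease inhibitor domains, and lies at chr12:83763634-83792382 (plus strand). In WT MTAL its level was 1.04, 2.001, 0.916, 1.52 and 1.20 CPM in replicates 11, 13, 15, 17 and 19, against 3.23, 6.17 and 18.8 CPM in cKO MTAL replicates 16, 18 and 20. In WT CTAL it was 10.1, 3.11, 17.7, 4.79 and 6.84 CPM in replicates 1, 3, 8, 10 and 22, and in cKO CTAL 11.2, 11.2, 10.96, 13.5 and 31.4 CPM in replicates 2, 4, 7, 9 and 21. WT MTAL was below every other pool, and the other 3 groups overlapped each other. In log2 terms cKO MTAL differed from WT MTAL by 2.80 (SE 0.51). The ratio of mean CPM was 7.04 with all pools and 3.52 without cKO MTAL replicate 20, a ratio added after seeing the data because *Papln* misses the count minimum without any one of the 3 cKO MTAL pools. In log2 terms WT MTAL differed from WT CTAL by -2.65 (SE 0.42). The log2 fold change was 0.83 (SE 0.40) between cKO CTAL and WT CTAL and -0.68 (SE 0.53) between cKO MTAL and cKO CTAL, and without cKO MTAL replicate 20 this last value was -1.69.

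*Aebp1* encodes a secreted, collagen-binding protein with a carboxypeptidase-like domain, and lies at chr11:5861947-5872088 (plus strand). In WT MTAL it was at 15.1, 8.72, 11.6, 9.62 and 11.4 CPM in replicates 11, 13, 15, 17 and 19, and in cKO MTAL at 26.8, 24.8 and 27.8 CPM in replicates 16, 18 and 20. In WT CTAL it was at 72.8, 48.4, 57.5, 37.7 and 43.5 CPM in replicates 1, 3, 8, 10 and 22, and in cKO CTAL at 57.4, 64.7, 64.4, 76.2 and 73.3 CPM in replicates 2, 4, 7, 9 and 21. *Aebp1* therefore formed 3 levels without overlap, WT MTAL, then cKO MTAL, then both cortical groups, which overlapped each other. Against WT, the log2 fold change of the cKO was 1.24 (SE 0.22) in MTAL and 0.36 (SE 0.15) in CTAL. Between segments it was -2.21 (SE 0.19) in WT and -1.31 (SE 0.13) in cKO.

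*Pkdcc* encodes a secreted tyrosine kinase that phosphorylates extracellular proteins, and lies at chr17:83215292-83225070 (plus strand). In WT MTAL its level was 2.83, 2.84, 3.10, 2.95 and 2.15 CPM in replicates 11, 13, 15, 17 and 19, against 6.03, 9.87 and 20.3 CPM in cKO MTAL replicates 16, 18 and 20. In WT CTAL it was 17.7, 11.1, 20.2, 13.2 and 8.74 CPM in replicates 1, 3, 8, 10 and 22, and in cKO CTAL 29.9, 24.3, 16.999, 21.5 and 28.5 CPM in replicates 2, 4, 7, 9 and 21. WT MTAL stood apart, and neighbours among the other 3 groups overlapped. The log2 fold change was 2.12 (SE 0.39) between cKO MTAL and WT MTAL, and without cKO MTAL replicate 20 it was 1.53. It was 0.75 (SE 0.21) between cKO CTAL and WT CTAL, -2.35 (SE 0.25) between WT MTAL and WT CTAL, and -0.96 (SE 0.34) between cKO MTAL and cKO CTAL, which became -1.57 without cKO MTAL replicate 20. That pool, which held the highest *Papln* and *Pkdcc* of its group, also had the highest summed level of 6 principal cell markers of all pools (848 CPM against 56.4 to 258 CPM) and of 5 intercalated cell markers (193 CPM against 15.98 to 149 CPM). The part of these markers in either gene was not tested.

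*Tnn* encodes tenascin-N, an extracellular glycoprotein of the tenascin family, and lies at chr1:160085029-160153580 (minus strand). In WT MTAL its level was 3.93, 3.83, 1.48, 0.882 and 6.21 CPM in replicates 11, 13, 15, 17 and 19, which stood for 68, 182, 29, 44 and 124 counts. In cKO MTAL it was 0.588, 0.790 and 0.355 CPM in replicates 16, 18 and 20, which stood for 8, 16 and 6 counts. The 10 cortical pools had between 0 and 17 counts each and at most 0.344 CPM, and 2 of them had a count of 0. Every WT MTAL pool was above every cKO MTAL pool, and both medullary groups were above both cortical groups. For cKO MTAL this last order is narrow, since its lowest pool (0.355 CPM, 6 counts) was just above the highest cortical pool (0.344 CPM, 17 counts). Between cKO MTAL and WT MTAL the log2 fold change was -2.46 (SE 0.67). *Tnn* passed the count minimum there and for the interaction through the WT MTAL pools. It missed the minimum in the other comparisons, and without a minimum its log2 fold change was 4.06 (SE 0.66) between WT MTAL and WT CTAL, 1.61 (SE 0.84) between cKO MTAL and cKO CTAL and -0.09 (SE 0.86) between cKO CTAL and WT CTAL.

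**Figure D2:**
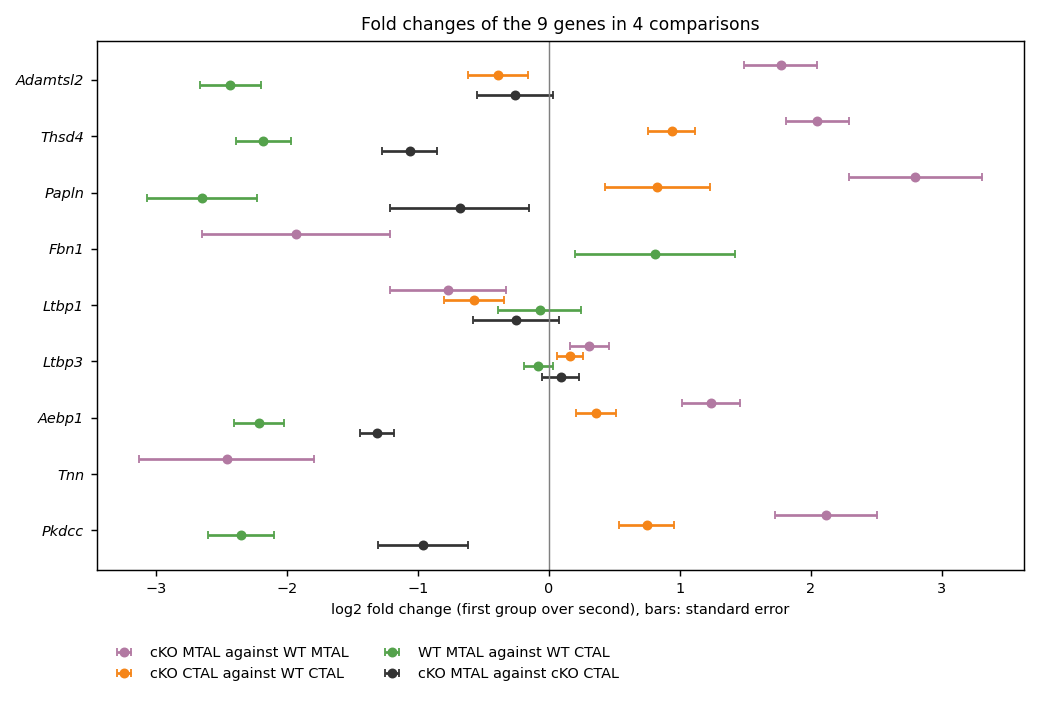
Log2 fold change of the first group over the second, with its standard error, for each of the 9 genes in the 4 comparisons in which it passed the count minimum. *Thsd4*, *Papln*, *Aebp1* and *Pkdcc* lie to the right of 0 in cKO against WT in both segments and to the left in MTAL against CTAL, *Adamtsl2* changes side between the segments, and *Ltbp3* stays within 0.31 of 0.

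Of the 9 genes tested between cKO MTAL and WT MTAL, 5 were higher and 1 was lower without overlap of the groups, where 6.79% of the 12060 genes tested were higher and 7.65% lower in that way. Their median log2 fold change was 1.24 against 0.00 for all genes. Between WT MTAL and WT CTAL, 5 of 8 tested were lower without overlap (4.31% of 11650 genes), with a median of -2.20 against 0.02. Between cKO CTAL and WT CTAL 1 of 7 was higher (1.85% of 11702 genes), and between cKO MTAL and cKO CTAL 2 of 7, *Thsd4* and *Aebp1*, were lower (5.98% of 12044 genes). Since 6 of the genes were chosen for such differences, nothing is read from these counts. The genotype comparison in MTAL and the segment comparison in WT share the WT MTAL pools, so that a low WT MTAL moves both.

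The difference between the genotype effects in MTAL and CTAL, on the log2 scale, was 2.14 (SE 0.38) for *Adamtsl2*, 1.92 (SE 0.68) for *Papln*, 1.35 (SE 0.40) for *Pkdcc*, 1.09 (SE 0.31) for *Thsd4* and 0.87 (SE 0.24) for *Aebp1*. For all 5 genes the log2 fold change of cKO over WT was thus more positive in the medulla than in the cortex, where that of *Adamtsl2* was below 0. For *Tnn* it was -2.46 (SE 1.05), with the cortical part resting on at most 17 counts a pool. Without cKO MTAL replicate 20 the value was 0.95 for *Papln* and 0.77 for *Pkdcc*.

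Sums of marker genes moved with some of these groups. Compared to WT MTAL, the sum of 7 TAL markers was higher in cKO MTAL (68589 to 81377 against 52328 to 63598 CPM), as were those of 5 tubular injury markers (2009.8 to 8129 against 1031 to 1259 CPM) and of 4 smooth muscle markers (28.4 to 45.5 against 13.4 to 17.8 CPM). The sum of 7 endothelial markers was lower (157 to 267 against 287 to 443 CPM). In cKO CTAL the injury sum was also above that of WT CTAL (1683 to 4438 against 1367 to 1623 CPM). Most of the injury sum was 1 gene, *Spp1* (1959 to 7835 CPM in cKO MTAL, 1015 to 1241 CPM in WT MTAL). Another of its genes, *Havcr1*, was near 0 in most pools and overlapped between cKO MTAL and WT MTAL (0.118 to 6.37 against 0 to 0.140 CPM). WT MTAL was below WT CTAL in the TAL sum (85279 to 96714 CPM in WT CTAL), the injury sum, the smooth muscle sum (18.7 to 35.1 CPM in WT CTAL) and that of 5 macula densa markers (2.06 to 6.16 against 6.50 to 23.4 CPM). Compared to cKO CTAL, cKO MTAL was lower in the TAL sum (68589 to 81377 against 82778 to 99517 CPM) and that of 6 immune cell markers (101 to 128 against 129 to 190 CPM), and higher in that of 4 thin limb markers (86.9 to 118 against 15.7 to 36.9 CPM). The sum of 10 fibroblast and pericyte markers lay between 32.2 and 85.3 CPM over all pools and overlapped in each of the 4 comparisons. Within WT CTAL, cKO CTAL and WT MTAL, however, this sum was higher without overlap in the pools with Xist. It was 62.8 and 85.3 CPM against 32.2 to 61.0 CPM in WT CTAL and 79.3 against 32.7 to 53.6 CPM in cKO CTAL. In WT MTAL it was 62.2 to 76.2 against 46.4 CPM. The part of these cell types and of injury in the levels of the 9 genes was not tested.

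*Fbn1* encodes fibrillin-1, the main component of microfibrils, and lies at chr2:125300594-125507993 (minus strand), where the coding gene Gm9913 overlaps it on the opposite strand. In WT MTAL it was at 9.59, 0.758, 12.9, 9.92 and 8.87 CPM in replicates 11, 13, 15, 17 and 19, and in cKO MTAL at 1.62, 4.20 and 0.651 CPM in replicates 16, 18 and 20. In WT CTAL it was at 1.13, 9.41, 2.35, 2.40 and 9.11 CPM in replicates 1, 3, 8, 10 and 22, and in cKO CTAL at 10.6, 1.69, 0.660, 1.89 and 0.551 CPM in replicates 2, 4, 7, 9 and 21. The pools of WT CTAL, cKO CTAL and WT MTAL each fell into a high and a low set, and all neighbouring groups overlapped. The log2 fold change was -1.93 (SE 0.72) between cKO MTAL and WT MTAL with an adjusted p of 0.116, and 0.81 (SE 0.61) between WT MTAL and WT CTAL with an adjusted p of 0.533. The first of these rested on single pools, since the adjusted p was 0.0205 without WT MTAL replicate 13 and 0.0497 without cKO MTAL replicate 18. The interaction was -1.34 (SE 1.17), with an adjusted p of 0.645. *Fbn1* did not pass the count minimum in the other comparisons.

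The high set of *Fbn1* was the set of 7 pools with Xist. *Fbn1* lay between 8.87 and 12.9 CPM in these pools and between 0.551 and 4.20 CPM in the other 11, and the sets did not overlap within WT CTAL, cKO CTAL or WT MTAL. The collagen gene *Col1a2* was split in the same way (13.3 to 18.7 against 1.48 to 11.4 CPM), while over all pools *Col1a1* (13.6 to 18.6 against 7.004 to 19.6 CPM) and the fibroblast receptor gene *Pdgfra* (1.62 to 4.43 against 0.401 to 4.39 CPM) overlapped. *Pdgfra* and *Col3a1* also overlapped within WT CTAL and within WT MTAL. Within each of WT CTAL, cKO CTAL and WT MTAL, however, *Col1a1* was higher without overlap in the pools with Xist. The same held for the fibroblast and pericyte marker *Pdgfrb*, narrowly in WT MTAL (4.97 to 6.41 CPM in pools with Xist against 4.91 CPM). With a term for these pools in a fit of all pools, a choice made after seeing the data, the log2 fold change of *Fbn1* between cKO MTAL and WT MTAL was 0.78 with an adjusted p of 0.435, and without them it was 1.52 with an adjusted p of 0.447. No cKO MTAL pool was among the 7, against 4 of 5 WT MTAL pools, so that in the medulla the sets nearly coincide with the genotypes. Why the pools differ in Xist was not tested.

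*Ltbp1*, which encodes an LTBP that links latent TGF-beta to fibrillin-1, lies at chr17:75005568-75392512 (plus strand) and holds the pseudogene Gm6276 on the same strand. It was at 10.7, 3.92, 9.87, 11.7 and 17.3 CPM in WT MTAL replicates 11, 13, 15, 17 and 19, and at 4.19, 10.1 and 4.32 CPM in cKO MTAL replicates 16, 18 and 20. It was at 7.94, 18.5, 8.58, 10.998 and 10.5 CPM in WT CTAL replicates 1, 3, 8, 10 and 22, and at 9.06, 9.02, 7.56, 6.54 and 5.71 CPM in cKO CTAL replicates 2, 4, 7, 9 and 21. All neighbouring groups overlapped. The log2 fold change was -0.77 (SE 0.44, adjusted p 0.309) between cKO MTAL and WT MTAL and -0.57 (SE 0.23, adjusted p 0.325) between cKO CTAL and WT CTAL. Between segments it was -0.07 (SE 0.32, adjusted p 0.936) in WT and -0.25 (SE 0.33, adjusted p 0.733) in cKO. The value in WT was -1.22 without the 7 pools with Xist, a fit with 1 WT MTAL pool. In the 7 pools with Xist *Ltbp1* lay between 9.06 and 18.5 CPM and in the other 11 between 3.92 and 10.998 CPM, and without the 7 the value between cKO MTAL and WT MTAL was 0.68 with an adjusted p of 0.512.

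*Ltbp3*, which encodes an LTBP that carries latent TGF-beta, lies at chr19:5740904-5758532 (plus strand). It was the steadiest of the 9 in CPM, from 59.4 to 91.7 CPM in WT MTAL, 82.6 to 104 CPM in cKO MTAL, 73.3 to 81.8 CPM in WT CTAL and 67.0 to 104 CPM in cKO CTAL. Its log2 fold change was 0.31 (SE 0.15, adjusted p 0.215) between cKO MTAL and WT MTAL, 0.16 (SE 0.10, adjusted p 0.573) between cKO CTAL and WT CTAL, -0.08 (SE 0.11, adjusted p 0.776) between WT MTAL and WT CTAL, and 0.09 (SE 0.14, adjusted p 0.766) between cKO MTAL and cKO CTAL. The lowest cKO MTAL pool (82.6 CPM) was just above the highest WT CTAL pool (81.8 CPM).

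**Figure D3:**
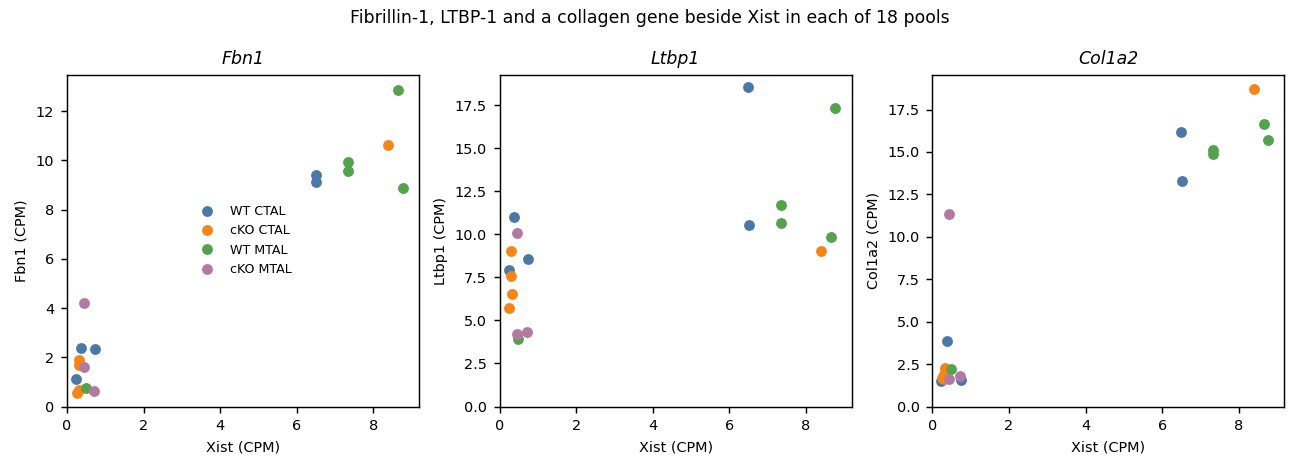
Level (CPM) of *Fbn1*, *Ltbp1* and *Col1a2* against that of Xist in each of 18 pools, coloured by group. The 7 pools with 6.50 to 8.77 CPM of Xist hold the highest *Fbn1* (8.87 to 12.9 CPM) and *Col1a2* (13.3 to 18.7 CPM), and *Ltbp1* overlaps between the sets.

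Per transcript length, *Ltbp3* was the most abundant of the 9 genes, with a median of 29.6 TPM, the deposited level corrected for transcript length, over the 18 pools. *Adamtsl2* (13.4 TPM), *Aebp1* (12.8 TPM), *Thsd4* (11.7 TPM) and *Pkdcc* (7.43 TPM) followed, and *Ltbp1* (2.12 TPM), *Papln* (1.84 TPM), *Fbn1* (0.434 TPM) and *Tnn* (0.074 TPM) were lower. This order is over groups that differ, and in WT MTAL the median of *Ltbp1* (2.34 TPM) was above that of *Pkdcc* (1.86 TPM), and those of *Fbn1* (1.09 TPM) and *Tnn* (0.773 TPM) were above that of *Papln* (0.303 TPM). *Fbn1* was there too below both ADAMTS-like genes, *Adamtsl2* (2.63 TPM) and *Thsd4* (2.71 TPM). The ratio of TPM to CPM, which follows the transcript length used for a pool, varied up to 2.92-fold between pools for *Ltbp3*, 2.67-fold for *Fbn1* and 2.40-fold for *Pkdcc*, and by 1.88-fold or less for the other 6, so that comparisons between groups rest on counts.

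The genes whose levels were most like those of each member were ranked by Pearson's r of log2(CPM + 1) over the 18 pools. These values describe pools that share libraries and fall into 4 groups. For *Thsd4* they included *Pth1r*, the parathyroid hormone receptor gene, and *Cldn16*, a claudin gene of the cation pathway of the TAL, each with r = 0.97. For *Adamtsl2* they were *Scn4b* and *Umod* (r = 0.91), the latter encoding uromodulin of the TAL, and *Nacc2* (r = 0.90). For *Aebp1* they were *Tmem52b*, *Acss1* and *Klk1* (r = 0.98), the last encoding tissue kallikrein. *Papss1*, which encodes an enzyme that makes the sulfate donor PAPS, was the nearest gene to both *Papln* and *Pkdcc* (r = 0.97). *Papln* was also near Gm20518 (r = 0.95) and *Hpcal4* (r = 0.94), and *Pkdcc* near Gm13652 and C130074G19Rik (r = 0.96).

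*Fbn1* was nearest to *Il1rl1* (r = 0.97), *Ddr2* (r = 0.96), a collagen receptor gene, and *Col5a1* (r = 0.95), a fibrillar collagen gene. *Ltbp1* was near *Ccnd1*, *Emilin1*, an elastic fibre gene, and *Eogt* (r = 0.83), *Ltbp3* near *Cnnm2* (r = 0.84), *Ubqln2* (r = 0.79) and *Arrdc3* (r = 0.78), and *Tnn* near *Slc24a5*, *Tnfrsf1a* and *Rgs7* (r = 0.92). Among the 9 genes the highest values were those of *Thsd4* with *Pkdcc* (r = 0.94) and of *Papln* with *Pkdcc* (r = 0.93), and *Fbn1* with *Ltbp1* gave 0.75.

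The rest of the pathway was read from 10 lists of 115 other genes, among them ADAMTS proteases, fibrillins and LTBPs, elastic fibre genes, TGF-beta ligands and receptors, and thrombospondin repeat proteins. Between cKO MTAL and WT MTAL, 57 of them were tested, 4 passed the adjusted p as higher and 2 as lower, or 10.5% against 7.01% of all genes tested, 3 of them also past the fold threshold (3.74% of all genes), and their median log2 fold change was 0.03. *Adamts1*, which encodes a protease of the extracellular proteoglycans, was higher by a log2 fold change of 1.69 (SE 0.35, adjusted p 0.00866). Its level was 14.5, 59.5 and 25.8 CPM in cKO MTAL replicates 16, 18 and 20 against 8.04 to 15.8 CPM in WT MTAL, and without replicate 18 the value was 0.97 with an adjusted p of 0.0795. Replicate 18 also had the highest injury marker sum of all pools (8129 CPM), and the part of injury in *Adamts1* was not tested. The value of *Adamts1* was 1.72 and 1.46 with limma on TPM, where the call was lost (adjusted p 0.0584 and 0.0591). It was 1.89 without the 7 pools with Xist, a fit that with 1 WT MTAL pool cannot decide the call. *Thbs2*, which encodes a matricellular thrombospondin, was higher by 1.67 (SE 0.46, adjusted p 0.0381), at 12.5 to 30.4 against 3.75 to 17.5 CPM. It lost the call without any one of cKO MTAL replicates 16 and 20 or WT MTAL replicates 11, 15, 17 and 19 (adjusted p between 0.0772 and 0.134). The call of *Thbs2* was also lost with the likelihood ratio test of DESeq2 (1.69, adjusted p 0.0584) and with limma on TPM (1.97 and 1.41, adjusted p 0.0808 and 0.0787). Its value was 2.37 without WT MTAL replicate 13. It was 0.37 without the 7 pools with Xist, a fit that with 1 WT MTAL pool cannot decide the call. *Tgfbr3*, which encodes the TGF-beta co-receptor betaglycan, was lower by a log2 fold change of -1.02 (SE 0.16, adjusted p 0.00142), at 67.2 to 120 against 169 to 193 CPM. It was -0.93 with an adjusted p of 0.0648 without the 7 pools with Xist, and it was under the fold threshold without cKO MTAL replicate 18 (-0.93) or 20 (-0.85). Named after their values were seen, the others past the adjusted p were *Thbs1* (0.69, adjusted p 0.00413), *Itgav* (0.60, adjusted p 0.00446), an integrin gene whose product can release TGF-beta, and *Mfap3l* (-0.49, adjusted p 0.0330).

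Between cKO CTAL and WT CTAL, 1 of 52 tested passed, where 1.22% of all genes passed the adjusted p and 0.47% the fold as well. This was *Mmrn2*, an endothelial gene, at -1.02 (SE 0.18, adjusted p 0.0131), with 8.96 to 10.98 CPM in cKO CTAL against 11.2 to 25.5 CPM in WT CTAL. Over the same pools the endothelial marker sum was 191 to 290 CPM in cKO CTAL and 237 to 512 CPM in WT CTAL, and its part was not tested. With a term for the pools with Xist the adjusted p of *Mmrn2* was 0.0552, and without these pools it was 0.678. With limma on TPM it was 0.271 and 0.275, and the fold threshold was missed without any one of cKO CTAL replicates 2 and 7 or WT CTAL replicates 3, 8 and 22 (-0.91 without WT CTAL replicate 22). Over the 9 alternative fits other than leaving out 1 pool, the log2 fold change of *Mmrn2* lay between -1.14 and -0.76.

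Between WT MTAL and WT CTAL, 7 of 54 passed, 2 higher and 5 lower, or 12.96% against 6.87% of all genes, and 1 also passed the fold threshold (2.32% of all genes). *Spon1*, which encodes the matrix protein F-spondin, was higher by 2.51 (SE 0.24, adjusted p 4.63e-06), at 11.5 to 14.8 against 1.64 to 3.41 CPM. It kept the call in every alternative fit, with adjusted p between 2.99e-21 and 0.0151. Its log2 fold change was lowest, at 1.27, with limma on log2(TPM + 1). *Tgfbr3* was also higher in WT MTAL, by 0.68 (adjusted p 8e-05), without reaching the fold threshold. Named after their values were seen, the 5 lower genes were *Cpm* (-0.54), *Itgav* (-0.49), *Tgfbr1* (-0.48), *Efemp1* (-0.46) and *Itgb8* (-0.42), with adjusted p between 0.00287 and 0.0335. *Spon1* shares its thrombospondin repeats with *Thsd4* and *Papln* and lay on the opposite side of 0 from both.

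Between cKO MTAL and cKO CTAL, 2 of 56 passed, where 1.75% of all genes passed the adjusted p and 0.938% the fold as well. *Efemp2*, which encodes an elastic fibre fibulin, was higher by 1.36 (SE 0.25, adjusted p 0.0154), at 12.9 to 17.9 against 3.91 to 7.12 CPM, and lost the call without cKO MTAL replicate 16 (adjusted p 0.0772) or cKO CTAL replicate 9 (adjusted p 0.0600), and with limma on TPM (adjusted p 0.0567 and 0.0569). *Cpm*, named after its values were seen, was lower at -0.95 (adjusted p 0.0209). For the interaction of genotype and segment, edgeR called 0 of 58 (0.23% of all 12586 genes, with 0.286% past the adjusted p alone), with 9 at an unadjusted p under 0.05 and 1 called by the likelihood ratio test of DESeq2.

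**Figure D4:**
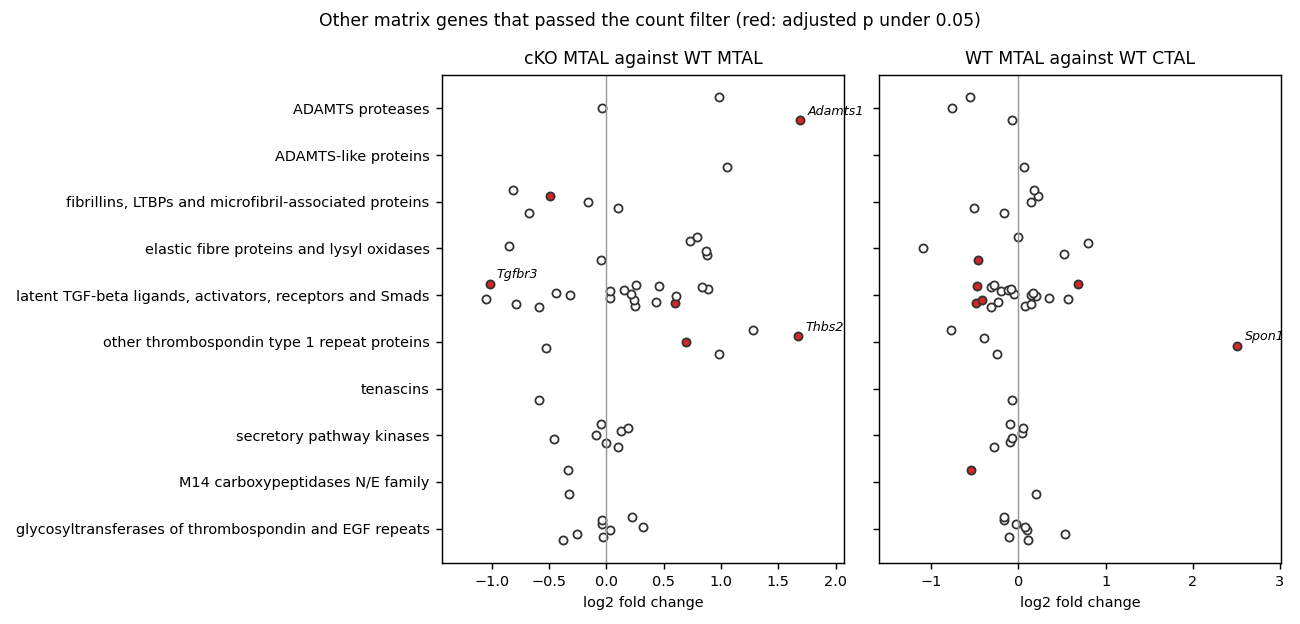
Log2 fold change of each other listed gene that passed the count minimum, by gene family, between cKO MTAL and WT MTAL (left) and between WT MTAL and WT CTAL (right), in red where the adjusted p was under 0.05 and named where the fold threshold was also passed. Most genes lie within 1 of 0 on both sides, with *Adamts1*, *Thbs2* and *Spon1* to the right and *Tgfbr3* to the left in the medulla.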

How the data were processed

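RNA-seq of poly-A mRNA (strand-specific, paired-end libraries) was available for 18 pools. The authors trimmed the reads, with fastp by the study's methods but with Trimmomatic by the records of the samples. They mapped and quantified them with DRAGEN on mm10, and they deposited estimated counts, not normalized, and TPM per gene. All columns were mapped to pools. Estimated counts were rounded to whole numbers, where whole counts had been planned for. Each comparison was fitted on its own groups in edgeR (version 4.0.16, under R 4.3.3) by its quasi-likelihood test, and genes needed 3 CPM or more in 5 pools, or in 3 pools for comparisons with cKO MTAL. A call is a Benjamini-Hochberg adjusted p under 0.05, over all genes tested, and a log2 fold change of 1 or more in size. Low-count precision is limited by depth, between 10824299 and 62339939 counts. No replicate pair agreed within sampling noise (chi-square per gene from 14.8 to 132).

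The members, the lists and the tests were chosen with earlier results of these data known. Named genes are the members, listed genes called in any comparison, *Cldn10*, *Slc12a1* and *Cdh16* (1285 to 2182 CPM), and the 3 genes most like each member, of which 1 is not reported here. Alternatives were DESeq2 (version 1.42.0, likelihood ratio test) with TMM factors, edgeR with the size factors of DESeq2, limma (version 3.58.1) on log2(TPM + 0.1) and log2(TPM + 1), no filter, one fit of all pools, WT CTAL replicate 1 counted as cKO, and each pool left out. The fits that set aside pools with more than 3 CPM of Xist were chosen after seeing the data, since no pool reached the planned 10 CPM. Gene positions are those of GENCODE on GRCm38, in which 55141 of 55401 identifiers (99.5%) were found.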

Additional observations from a re-analysis of the deposited data

Results flagged for a closer look

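The genotype effect of *Adamtsl2* had opposite directions in the segments, 1.77 (SE 0.28) in MTAL and -0.39 (SE 0.23) in CTAL on the log2 scale, a difference of 2.14 that was not tested because the gene was chosen for its differences in these pools. The cortical groups overlapped, and the cortical value was -0.2 without cKO CTAL replicate 21. Among 27 groups of 5 pools examined, of which chance sets apart about 1 in 20, 4 held a pool far from the others. *Papln* was at 31.4 CPM in cKO CTAL replicate 21, above the 10.96 to 13.5 CPM of its group. *Fbn1* was at 10.6 CPM in cKO CTAL replicate 2, which is the cKO CTAL pool with Xist. *Ltbp1* was at 18.5 CPM in WT CTAL replicate 3, another pool with Xist. *Pkdcc* was at 2.15 CPM in WT MTAL replicate 19, below the 2.83 to 3.10 CPM of its group.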

How the results depend on the processing

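The directions of *Adamtsl2*, *Thsd4*, *Papln*, *Aebp1*, *Tnn* and *Pkdcc* were the same in every alternative that gave a value. No paired analysis was possible because the groups share no replicate numbers. The planned fit without pools over 10 CPM of Xist was not run, since it left out none, and genes under the count minimum have a value only in the fit without it. Low counts limit *Tnn*, *Fbn1* and *Papln*. The cause of the changes below was not tested.

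Genes called were 451 between cKO MTAL and WT MTAL, 55 between cKO CTAL and WT CTAL, 270 between WT MTAL and WT CTAL, 113 between cKO MTAL and cKO CTAL and 29 for the interaction, and listed genes called were 3, 1, 1, 1 and 0. Without the filter they were 869, 344 (cKO segments) and 69 (interaction), and listed genes 5, 2 (WT segments) and 4, with *Fbn1* between cKO MTAL and WT MTAL at -1.98 (adjusted p 0.0224, over its alternatives 0.0224 to 0.447). With the likelihood ratio test of DESeq2 they were 388 and 249 for the last 2, with 6 and 1 listed genes. In one fit of all pools they were 807 and 354, with 6 and 4 listed genes. With WT CTAL replicate 1 as cKO they were 179 and 16, with 2 (CTAL) and 3 listed genes.

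With limma on log2(TPM + 0.1) they were 222, 54 and 8, with 0 listed genes in every comparison but that of the WT segments, *Tnn* was -1.52 (interaction -1.50), *Pkdcc* 1.56, -1.84 (WT segments) and 0.45 (interaction), and *Ltbp3* 0.03 between WT segments. On log2(TPM + 1) they were 224, 63 and 7, again with 0 listed genes there, *Papln* was 1.30, -1.18 and 0.51, *Tnn* -0.51 (also the interaction), *Pkdcc* 1.27, -1.52 and 0.24, *Thsd4* -1.73 between WT segments and *Ltbp3* 0.03.

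With a term for pools with Xist, genes called were 359 between cKO segments and 18 for the interaction, listed genes 5, 0, 2 and 6 in the order above, and *Fbn1* was 0.78, -0.38 (WT segments) and 1.15 (interaction), with *Ltbp1* 0.34 (interaction). Without those pools genes called were 128, 3, 171, 188 and 0, listed genes 0 for both genotype comparisons and 5 between cKO segments, *Fbn1* was 1.52, -1.37 and 2.20, *Ltbp1* 0.68 and 1.03 (interaction), *Adamtsl2* 1.11 and -1.94 (WT segments), and *Aebp1* 1.61, -2.68 and 1.31.

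Leaving out 1 pool at a time, genes called ranged from 259 (without cKO MTAL 20) to 606 (without cKO MTAL 18), 36 to 66 (without cKO CTAL 2 and WT CTAL 1), 201 to 277, 71 to 515 (without cKO CTAL 9 and cKO MTAL 18) and 13 to 423 (without cKO CTAL 9 and cKO MTAL 18), and listed genes 1 to 3, 0 to 2, 1 to 2, 0 to 4 and 0 to 2. Between cKO MTAL and WT MTAL *Fbn1* ranged from -2.89 (without cKO MTAL 18, adjusted p 0.0497) to -1.49, with an adjusted p of 0.0205 without WT MTAL 13, and *Pkdcc* from 1.53 to 2.45. *Ltbp1* ranged from -0.31 to 0.17 between WT segments, and *Papln* from -1.69 to -0.30, *Pkdcc* from -1.57 to -0.67 and *Ltbp3* from -0.01 to 0.15 between cKO segments. For the interaction *Fbn1* ranged from -2.28 to 0.02, *Ltbp1* from -0.74 to 0.06, *Papln* from 0.95 to 2.36 and *Pkdcc* from 0.77 to 1.67.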
